A study of Mus musculus with 18 samples.

Results

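The neurofilament and vimentin mRNAs described here are those of 6 genes for intermediate filament proteins, chosen by gene name: Nefl, Nefm and Nefh for the light, medium and heavy neurofilament chains, Ina for alpha-internexin, Prph for peripherin and Vim for vimentin. A row under its name was found for 5 of the 6 genes. The table of the dorsal root held 5 of them and that of the sciatic nerve held 4, among 12697 genes that stood in both tables and 15552 that stood in either. Ina had a row in the dorsal root table alone. Prph had a row in neither table, under its name or under any of its transcript identifiers in GENCODE M21, and is not analysed here. RNA came from axoplasm of C57B6 mice, a lysate of ground nerve tissue cleared by centrifugation, and was amplified with the SMART-Seq v4 kit. The groups were the Kif5A precipitate, the precipitate of rabbit IgG as isotype control and the input lysate of the sciatic nerve, and the same 3 of the dorsal root, each with 3 libraries. Each independent repeat pooled 5 animals, and both tissues were taken from the same animals. The labels give no genotype, treatment or age, and they tell the groups apart by tissue and by precipitation. The lysate holds the soluble content of every cell in the tissue as well as that of axons, which limits it as a model of the axon.

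Neurofilament chains assemble into long polymers that fill large axons and set their width. The light chain forms the core with the medium and heavy chains, whose long phosphorylated tails project from the filament, and alpha-internexin and peripherin join the polymer in central and peripheral neurons. Kif5A is a neuronal heavy chain of the motor kinesin-1, and in mice it has been linked to the transport of neurofilament proteins along axons. Vimentin forms a related filament in Schwann cells, fibroblasts, endothelial cells and macrophages. In injured rat sciatic nerve it is also made in axons, where its cleaved form links phosphorylated Erk kinases to importin and dynein.

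Because these genes share an ancestor, their coding sequences in GENCODE M21 (GRCm38) were compared before the counts. The longest identical run between the coding sequences of any pair was 23 bases, found between Nefm and Nefh and between Nefh and Vim. Nefl lies on the plus strand of chromosome 14 (68083863 to 68089095), and the counted Nefm transcript lies beyond it on the minus strand (68119283 to 68124846). A longer annotated Nefm transcript, which had no row in the tables, overlaps 1108 of the 3380 exon bases of Nefl on the opposite strand. No source used here says whether counting used the strand, so reads of that stretch cannot be assigned to a strand. Nefh lies on chromosome 11 (4938754 to 4948064, minus strand), Ina on chromosome 19 (47014698 to 47025327, plus strand) and Vim on chromosome 2 (13573952 to 13582826, plus strand). Nefl, Nefm, Nefh and Ina were each counted over a single protein-coding transcript, of 3380, 3334, 3994 and 3240 bases.

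Total counts per library lay between 11610004 and 22616406. Levels below, written CPM, are counts scaled to a common library total with TMM factors, and levels of different genes are compared only per kb of transcript. Tests are edgeR quasi-likelihood tests over all genes with the adjustment of Benjamini and Hochberg, and a gene passed at an adjusted p under 0.05. Summed markers of myelinating Schwann cells were abundant in all 18 libraries. The summed level of 8 myelinating Schwann cell markers, none of them at 0 in any group, was 4268 to 26896 CPM in sciatic nerve libraries and 11471 to 30274 CPM in dorsal root libraries. Of 10 sensory neuron markers, 3 had a row in the sciatic nerve table and 7 in that of the dorsal root. The 3 in both (Isl1, Calca and Tubb3) summed to 9.87 to 53.1 CPM in sciatic nerve and 39.3 to 76.0 CPM in dorsal root libraries, and the transcription factor Isl1 was at 0 in all libraries of 3 of the 6 groups. Of 4 motor neuron markers, 0 had a row in the sciatic nerve table and 2 in that of the dorsal root. The astrocyte water channel Aqp4 had 0.243 to 2.84 CPM in sciatic nerve libraries and 164 to 521 CPM in dorsal root libraries. Sciatic nerve input replicate 3 stood apart from the other sciatic nerve inputs, with fibroblast markers summing to 8027 CPM against 20076 and 22590 CPM.

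In the inputs, the neurofilament chains and vimentin differed between the tissues in opposite directions. The mRNAs of the light and medium chains fell in sciatic nerve axoplasm relative to dorsal root axoplasm, and that of vimentin rose. Nefl had 17.2, 15.4 and 19.6 CPM in sciatic nerve inputs, against 125, 123 and 110 CPM in dorsal root inputs. The sciatic nerve values lay close together, far below every dorsal root value, and the log2 fold change was -2.76 (SE 0.24, adjusted p = 0.000317). Nefm had 16.9, 10.9 and 6.26 CPM in sciatic nerve inputs, against 61.8, 49.7 and 41.2 CPM in dorsal root inputs. These groups did not overlap either, although the sciatic nerve values spread more widely, and the log2 fold change was -2.15 (SE 0.39, adjusted p = 0.0161). Nefh, the heavy chain, had 12.3, 4.83 and 17.7 CPM in sciatic nerve inputs, against 28.6, 36.9 and 26.2 CPM in dorsal root inputs. The groups were apart, but its log2 fold change of -1.37 (SE 0.45) did not pass (adjusted p = 0.172), with a 95% interval of -2.40 to -0.34. Vim had 2397, 2608 and 2174 CPM in sciatic nerve inputs, against 924, 1061 and 1199 CPM in dorsal root inputs, a log2 fold change of 1.19 (SE 0.21, adjusted p = 0.0139). All 3 sciatic nerve values of Vim lay above all 3 dorsal root values. Thus 3 of the 4 genes tested passed, beside 4.12% of all genes (503 of 12215, of which 285 were higher and 218 lower in sciatic nerve). In these bulk lysates, fewer cells or axons of a type and less RNA per cell cannot be told apart.

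The call for Nefl held without any of the 6 inputs in turn, at adjusted p-values up to 0.00466. Those for Nefm and Vim rested on more libraries. Nefm missed the threshold without dorsal root input replicate 1 (adjusted p = 0.101) or replicate 2 (adjusted p = 0.0785). Vim missed it without dorsal root input replicate 1 (adjusted p = 0.130) or 2 (adjusted p = 0.113) and without sciatic nerve input replicate 1 (adjusted p = 0.0845) or 2 (adjusted p = 0.0726), while its log2 fold change stayed between 1.10 and 1.24. Over all of the alternatives for the inputs, adjusted p-values ran up to 0.101 for Nefm and 0.130 for Vim. Without sciatic nerve input replicate 3, the library with few fibroblast markers, all 4 genes passed, Nefh with a log2 fold change of -1.82 (adjusted p = 0.00410; range over its alternatives 0.00410 to 0.543). That fit called 2538 genes in all.

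**Figure D1:**
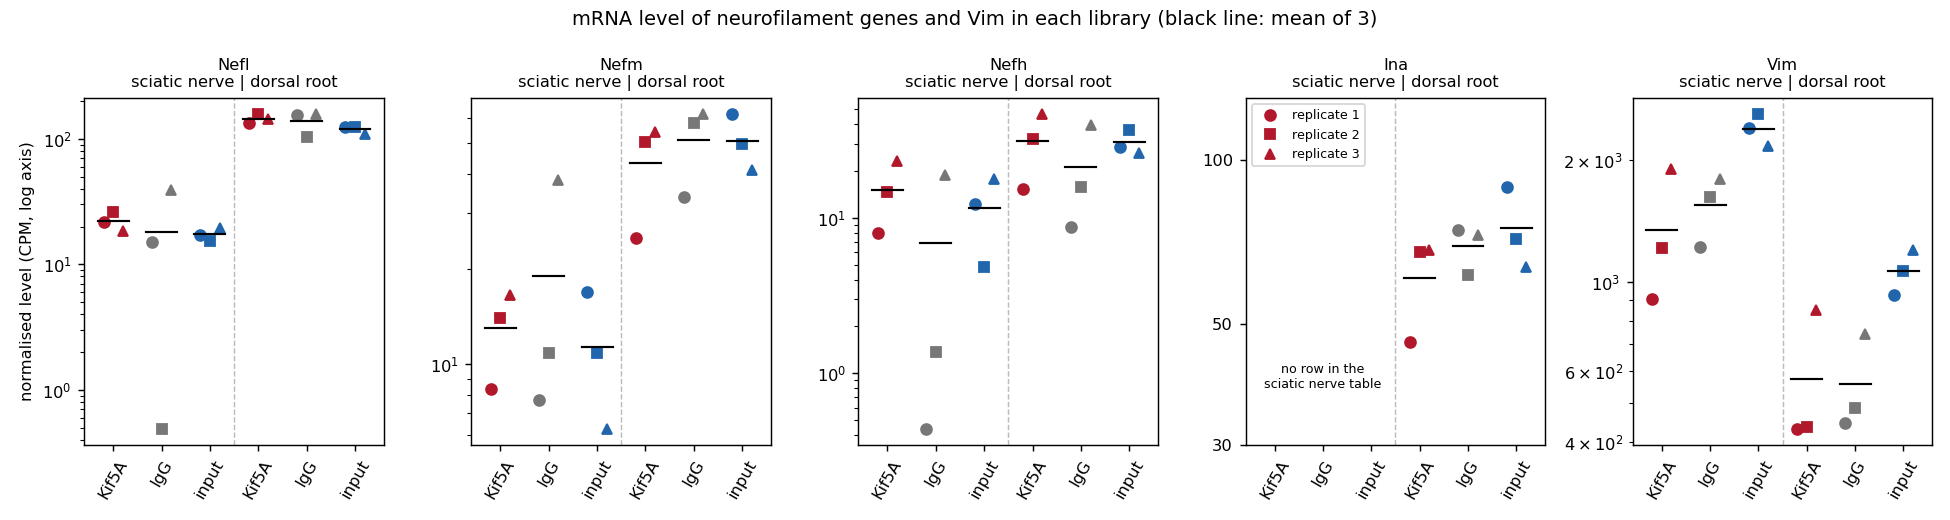
Level of each gene in each of the 18 libraries, in CPM on a log axis with its own range per panel; colours mark Kif5A (red), IgG (grey) and input (blue), symbols mark the replicate number and black lines the mean of 3 libraries. The 3 neurofilament chains have lower input levels in sciatic nerve than in dorsal root and Vim has higher ones, and in IgG precipitates of sciatic nerve Nefl and Nefh spread more widely than in any other group.

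Ranked per kb of transcript, vimentin stood above every neurofilament chain in both tissues. In sciatic nerve inputs the level was 1090 ± 99.1 CPM per kb for Vim, 5.15 ± 0.621 for Nefl, 3.40 ± 1.60 for Nefm and 2.90 ± 1.62 for Nefh (SD, n = 3 each). The ranges of the 3 neurofilament chains overlapped there between Nefl and Nefm and between Nefm and Nefh. In dorsal root inputs it was 483 ± 62.4 CPM per kb for Vim, 35.3 ± 2.51 for Nefl, 23.1 ± 4.05 for Ina, 15.3 ± 3.09 for Nefm and 7.66 ± 1.41 for Nefh (SD, n = 3 each), and no neighbours in that order overlapped. Vim exceeded the sum of the 3 chains 81.7 to 131 times in sciatic nerve inputs and 6.71 to 10.6 times in dorsal root inputs.

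The make-up of the neurofilament triplet, as shares of the summed level per kb, was steady in dorsal root inputs and loose in sciatic nerve. Nefl made up 38.5%, 50.5% and 47.9% of the triplet in sciatic nerve inputs, against 59.0%, 60.2% and 63.1% in dorsal root inputs, groups that did not overlap. Nefh made up 23.2%, 13.4% and 36.6% in sciatic nerve inputs, against 11.4%, 15.3% and 12.8% in dorsal root inputs, and these overlapped. The ratio of Nefl to Nefm was 1.00, 1.40 and 3.09 in sciatic nerve inputs, against 2.00, 2.45 and 2.62 in dorsal root inputs. The shares were not tested. In dorsal root libraries of every kind Nefl was the most abundant of the 3 chains, at 59.0% to 78.9% of the triplet.

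**Figure D2:**
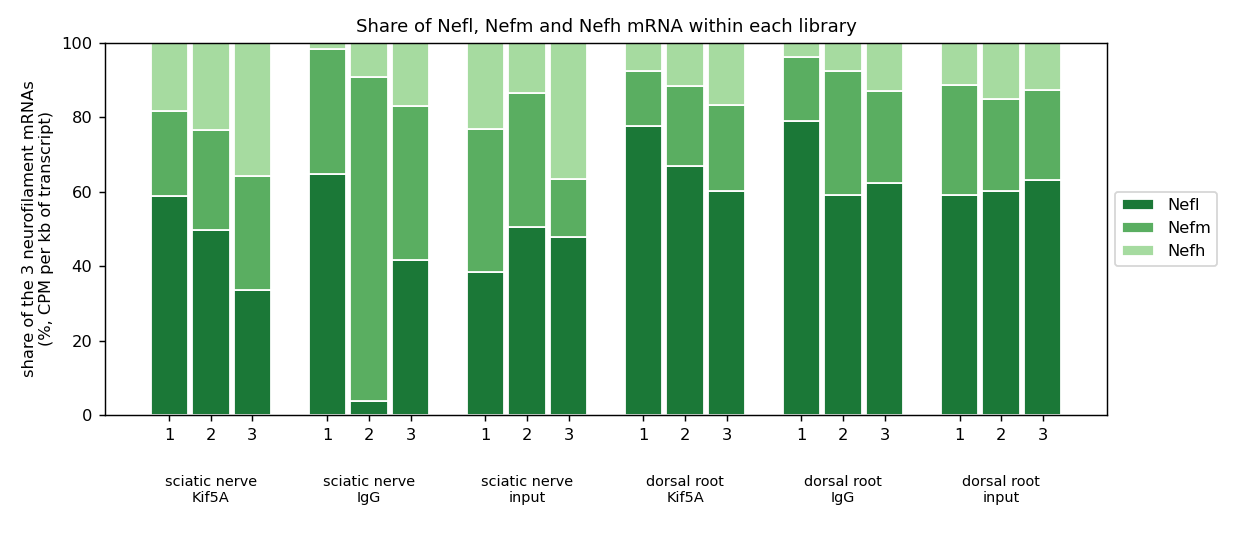
Shares of Nefl (dark green), Nefm (mid green) and Nefh (light green) in their summed level per kb of transcript, in percent, with a bar for each library (replicate number below it). Nefl makes up more than 59% in every dorsal root library, while in sciatic nerve its share runs from 3.85% to 64.7%.

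Other genes that act with these filaments, and markers of the cells around axons, were compared in the same inputs. Of 8 other intermediate filament genes, 0 were higher and 1 was lower in sciatic nerve. This was Gfap, the filament of astrocytes and of some Schwann cells, with 1.60, 1.81 and 6.08 CPM in sciatic nerve inputs, against 192, 165 and 279 CPM in dorsal root inputs (log2 fold change -6.02, adjusted p = 0.000570). The median of these 8 genes was 0.40, beside 0.06 for all genes. Of 18 kinases and regulators that act on neurofilaments, 0 were higher and 1 was lower, Cdk5r1, the activator of the tail kinase Cdk5 (log2 fold change -2.75, SE 0.39, adjusted p = 0.00423), with a median of -0.03 for the list. Such a count, 1 of 18, is near the 4.12% that passed over all genes. None of the 9 linkers and turnover factors passed (median 0.12), where the largest evidence was for the plakin Ppl (2.40, adjusted p = 0.0727) and the small heat shock protein Cryab (-0.61, adjusted p = 0.613). None of the 5 proteins known to bind neurofilament mRNAs passed (median 0.45), with Arhgef28 at 0.90 (adjusted p = 0.197) and Sod1 at 0.45 (adjusted p = 0.347). None of the 12 partners of vimentin in injury signalling passed (median -0.02), among them the dynein heavy chain Dync1h1 at 0.46 (adjusted p = 0.408) and importin beta 1, Kpnb1, at 0.34 (adjusted p = 0.560).

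Some marker genes of neurons and of other cells passed in the same comparison as Nefl, Nefm and Vim, beside 4.12% of all genes (503 of 12215). Tubb3, the neuronal beta-tubulin, fell in sciatic nerve inputs (log2 fold change -3.29, SE 0.34, adjusted p = 0.000701) and was the only call among the 3 sensory neuron markers. Calca, the precursor of the neuropeptide CGRP, did not pass and lay on the other side, with 27.8, 27.4 and 29.1 CPM in sciatic nerve inputs, against 16.4, 25.4 and 21.5 CPM in dorsal root inputs. Of 5 astrocyte markers, 2 fell, Aqp4 (-6.82, adjusted p = 1.32e-05) and the glutamate transporter Slc1a2 (-5.37, adjusted p = 3.21e-05), and their list summed to 139 to 335 CPM in sciatic nerve inputs and 792 to 1110 CPM in dorsal root inputs. Of 7 fibroblast markers, 3 rose: Dpt (3.27, adjusted p = 0.00283), Col1a1 (2.17, adjusted p = 0.00423) and Col3a1 (2.42, adjusted p = 0.0110). The fibroblast list had a median of 1.71 and summed to 8027 to 22590 CPM in sciatic nerve inputs and 4646 to 5885 CPM in dorsal root inputs. Of 5 non-myelinating Schwann cell markers, the neurotrophin receptor Ngfr rose (1.59, adjusted p = 0.0206). Of the 8 myelinating Schwann cell markers 0 passed, nor did any of the 5 endothelial or the 5 macrophage markers. Summed myelin markers were 18449 to 26896 CPM in sciatic nerve inputs and 22229 to 30274 CPM in dorsal root inputs, and macrophage markers were 445 to 1022 and 775 to 996 CPM. No marker in both tables was at 0 in all inputs of a tissue. The part of these cells in the neurofilament and vimentin differences was not tested.

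The central question of the design is whether an mRNA came down with Kif5A beyond the IgG control. No call was made for any of the genes in either tissue. In sciatic nerve, 0 of 4 passed beside 0.0478% of all genes (6 of 12551), and in dorsal root 0 of 4 beside 0% (0 of 12551, with 750 at an unadjusted p under 0.05). With DESeq2 the calls numbered 411 genes in sciatic nerve and 158 in dorsal root, and again none of the 4.

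For the light chain, Nefl, Kif5A precipitates of sciatic nerve had 21.6, 26.2 and 18.4 CPM, against 15.1, 0.488 and 39.0 CPM in IgG precipitates. The Kif5A values fell within the span of the IgG values, of which replicate 2 was very low, with 10 counts. The log2 fold change was 0.29 (95% interval -1.57 to 2.16, adjusted p = 0.983). In dorsal root, Nefl had 133, 159 and 143 CPM with Kif5A, against 156, 104 and 158 CPM with IgG (log2 fold change 0.10, 95% interval -1.75 to 1.96, adjusted p = 1.00). For the medium chain, Nefm, Kif5A precipitates of sciatic nerve had 8.37, 14.0 and 16.6 CPM, against 7.73, 10.9 and 38.3 CPM in IgG precipitates (log2 fold change -0.52, 95% interval -1.88 to 0.83). In dorsal root they had 25.1, 50.3 and 54.4 CPM, against 33.8, 58.1 and 62.0 CPM with IgG (log2 fold change -0.20, 95% interval -1.55 to 1.15).

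The heavy chain, Nefh, had the highest point estimate among the genes tested in both tissues and also the widest interval. It had 7.93, 14.6 and 23.1 CPM in Kif5A precipitates of sciatic nerve, against 0.438, 1.37 and 18.9 CPM in IgG precipitates. Replicates 1 and 2 with IgG were low, with 9 and 28 counts, while replicate 3 with 417 counts lay among the Kif5A values, so the groups overlapped. The log2 fold change was 1.15 (95% interval -1.27 to 3.56, adjusted p = 0.917). Without IgG replicate 3 it was 4.13 and still missed the threshold (adjusted p = 0.120; range over its alternatives 0.120 to 1.00). In dorsal root, Nefh had 15.3, 32.3 and 46.8 CPM with Kif5A, against 8.75, 15.7 and 39.4 CPM with IgG (log2 fold change 0.61, 95% interval -1.78 to 2.99). In the authors' deposited table, the log2 fold change of Nefh was 2.32 in sciatic nerve with a false discovery rate of 0.236 and 0.68 in dorsal root with one of 0.710.

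Ina, which encodes alpha-internexin and was listed for dorsal root alone, had 46.2, 67.8 and 68.3 CPM with Kif5A, against 74.5, 61.5 and 72.8 CPM with IgG. The groups overlapped, and in a fit of the dorsal root table alone its log2 fold change was -0.13 (95% interval -0.88 to 0.62, adjusted p = 1.00), beside 0% of all genes called (0 of 13124, with 771 at an unadjusted p under 0.05 and 283 called by DESeq2). Vim had 904, 1210 and 1903 CPM in Kif5A precipitates of sciatic nerve, against 1218, 1621 and 1799 CPM in IgG precipitates (log2 fold change -0.16, 95% interval -0.96 to 0.63). In dorsal root it had 431, 435 and 852 CPM with Kif5A, against 445, 486 and 742 CPM with IgG (log2 fold change 0.09, 95% interval -0.70 to 0.89). Vim, with 6328 to 39627 counts a library in the precipitates, had narrower intervals than the 3 neurofilament chains. Except for Ina, these intervals use a spread shared by all 12 precipitates, not that of the compared groups alone. In dorsal root the SD of Nefl was 9.01% of its mean with Kif5A and 21.9% with IgG, against 42.3% and 28.8% for Vim. With IgG in sciatic nerve, the SD of Nefl was 107% of its mean.

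The ratio of Kif5A to IgG was also compared between the tissues. The difference, sciatic nerve minus dorsal root on the log2 scale, was 0.19 for Nefl (95% interval -2.43 to 2.82), -0.32 for Nefm (-2.23 to 1.58), 0.54 for Nefh (-2.83 to 3.90) and -0.26 for Vim (-1.38 to 0.87). None of the 4 passed, beside 0.0159% of all genes (2 of 12551), and DESeq2 called 188 genes and none of the 4. Without sciatic nerve IgG replicate 3 the difference was 3.52 for Nefh, which did not pass (adjusted p = 0.357; range over its alternatives 0.357 to 1.00).

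**Figure D3:**
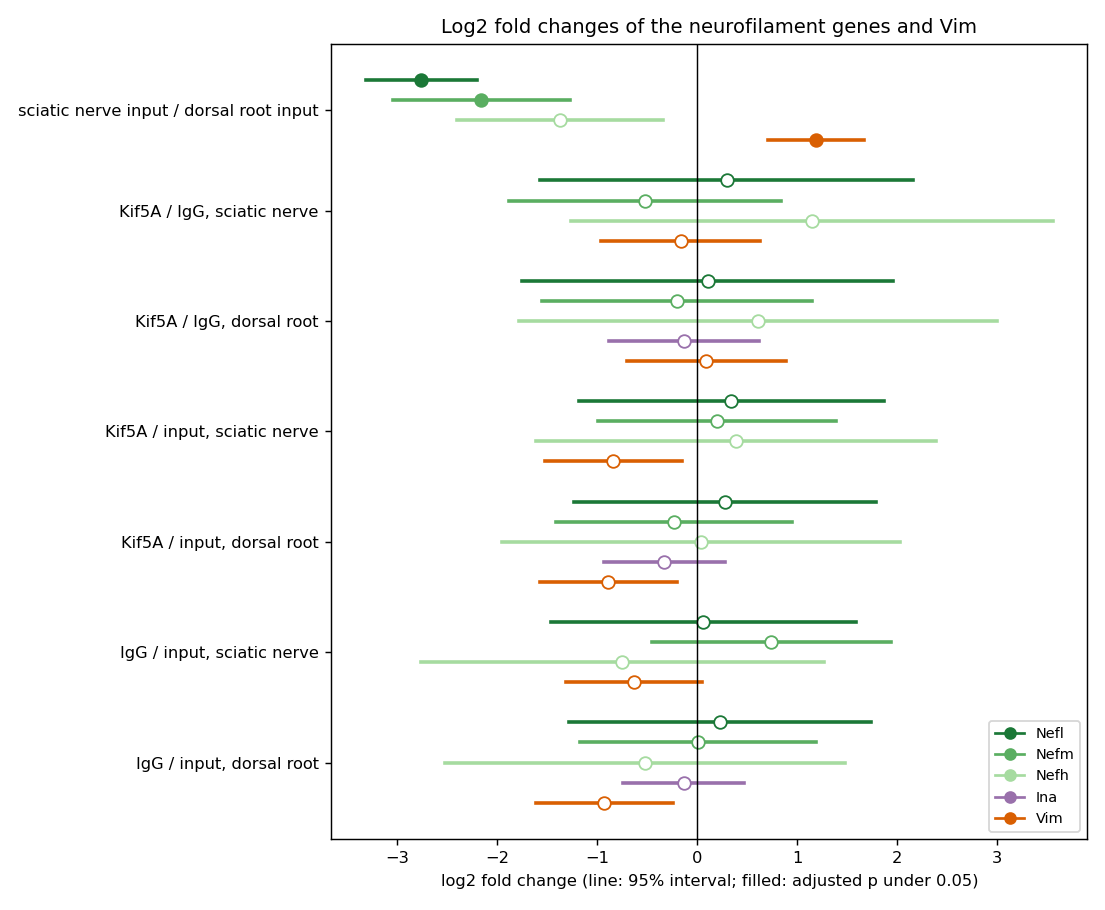
Log2 fold change of each gene (points) with its 95% interval (lines) in 7 comparisons, where Ina comes from the fit of the dorsal root table alone; a filled point marks an adjusted p under 0.05. The 3 filled points are Nefl, Nefm and Vim in the comparison of inputs, and every interval of Kif5A over IgG includes 0.

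Precipitates were set against the inputs of the same tissue next. These comparisons share their input libraries with each other. The neurofilament genes made no call in any of them. With TMM factors Vim was lower in every precipitate than in the inputs of its tissue, but this did not pass either. In sciatic nerve, the levels of Vim given above lay at 904 to 1903 CPM with Kif5A and, with IgG, at 1218 to 1799 CPM, against 2174 to 2608 CPM in the inputs. In dorsal root they lay at 431 to 852 CPM with Kif5A and at 445 to 742 CPM with IgG, against 924 to 1199 CPM in the inputs. On this scale precipitates of either kind did not overlap the inputs in either tissue. The share of all genes apart in this way was not counted. Scaled by library size alone, the Kif5A precipitates of dorsal root overlapped the inputs. There Kif5A replicate 3 had 880 CPM of Vim, above input replicate 1 at 826 CPM. For Kif5A over input the log2 fold change was -0.84 in sciatic nerve (95% interval -1.52 to -0.15, adjusted p = 0.748) and -0.89 in dorsal root (-1.57 to -0.21, adjusted p = 0.433). For IgG over input it was -0.63 in sciatic nerve (-1.31 to 0.05, adjusted p = 0.305) and -0.93 in dorsal root (-1.61 to -0.24, adjusted p = 0.128). Vim passed for IgG over input in dorsal root with DESeq2 (-0.94, adjusted p = 0.0416), with the replicate number as a block (-0.96, adjusted p = 0.0336) and without IgG replicate 3 (-1.19, adjusted p = 0.0452). Over all genes, DESeq2 called 1417 and the fit without IgG replicate 3 called 1339, against 156 in the main fit. Among the alternatives for Vim that kept every library, the block included, 1417 was the highest number called. The number called with the block itself is not reported here. Over all alternatives for that value, adjusted p-values lay between 0.0336 and 0.320. In the authors' deposited table, the main Vim transcript had a log2 fold change of Kif5A over input of -0.87 in sciatic nerve with a false discovery rate of 0.165, and of -1.0 in dorsal root with one of 0.0141.

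For Kif5A over input, 0 of 4 genes passed in sciatic nerve, beside 0.00789% of all genes (1 of 12681, with 770 at an unadjusted p under 0.05 and 51 by DESeq2). In dorsal root 0 of 4 passed, beside 0% (0 of 12681, with 1064 at an unadjusted p under 0.05 and 178 by DESeq2). Ina had 46.2, 67.8 and 68.3 CPM with Kif5A, against 89.4, 71.7 and 63.7 CPM in dorsal root inputs, and the groups overlapped. In the dorsal root table alone it had a log2 fold change of -0.33 (95% interval -0.93 to 0.28, adjusted p = 0.773), beside 0.00707% called (1 of 14150). For IgG over input, 0 of 4 passed in sciatic nerve, beside 3.74% of all genes (474 of 12681), and 0 of 4 in dorsal root, beside 1.23% (156 of 12681). Ina had -0.14 there (95% interval -0.74 to 0.47), beside 0% called in the dorsal root table alone (0 of 14150, with 3163 at an unadjusted p under 0.05 and 2249 called by DESeq2). DESeq2 called 1414 genes in sciatic nerve for IgG over input, none of them among the 4, and 1417 in dorsal root.

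The neurofilament chains in Kif5A precipitates differed from their inputs by at most 0.39 on the log2 scale. Kif5A over input was 0.34 for Nefl, 0.20 for Nefm and 0.39 for Nefh in sciatic nerve, with intervals from -1.18 to 1.86, -0.99 to 1.38 and -1.61 to 2.39. In dorsal root it was 0.28 for Nefl, -0.23 for Nefm and 0.04 for Nefh, with intervals from -1.23 to 1.79, -1.41 to 0.94 and -1.95 to 2.03. These intervals use a spread shared by all 18 libraries, not that of the compared groups alone. Nefl itself had 133 to 159 CPM with Kif5A in dorsal root, against 110 to 125 CPM in the inputs. With IgG it had 156, 104 and 158 CPM there, of which 156 and 158 CPM also lay above all inputs. The share of all genes with such a gap was not counted. IgG over input was 0.06 for Nefl, 0.74 for Nefm and -0.75 for Nefh in sciatic nerve, and 0.23, 0.01 and -0.52 for the same genes in dorsal root. Without sciatic nerve IgG replicate 3, Nefh was at -3.67 in IgG over input and passed (adjusted p = 0.0248; range over its alternatives 0.0248 to 0.929), while leaving out other libraries gave values up to -0.19. The fit without that library called 849 genes in all, against 474 with every library.

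Within the precipitates, replicate 3 had the highest level of Nefm, of Nefh and of Vim in each of the 4 groups. For Nefh these were 23.1 (Kif5A) and 18.9 CPM (IgG) in sciatic nerve, and 46.8 and 39.4 CPM in dorsal root. Nefl did not share this, since its replicate 3 was the lowest with Kif5A in sciatic nerve, at 18.4 CPM. Summed myelinating Schwann cell markers were also highest in replicate 3, at 4268, 8928 and 23129 CPM in the 3 Kif5A precipitates of sciatic nerve and 5394, 8124 and 23305 CPM in those with IgG. In dorsal root they were 13681, 11561 and 20286 CPM with Kif5A and 15589, 11471 and 20302 CPM with IgG. Whether the libraries with this number share animals is not stated in the labels. The part of myelinating cells in the spread of these genes was not tested.

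The ratio of Ina to Nefl per kb, both neuronal chains of the same library, was 0.364, 0.446 and 0.498 in Kif5A precipitates of dorsal root and 0.498, 0.615 and 0.479 in IgG precipitates, against 0.744, 0.607 and 0.606 in the inputs. The Kif5A values lay below all input values. So did the IgG values of 0.498 and 0.479, while that of 0.615 lay among the inputs. The ranges of Kif5A and IgG overlapped. The ratio was not tested, and neither gene passed alone. Sciatic nerve IgG replicate 2 stood out in the triplet. It held 10 counts of Nefl, against 223 counts of Nefm, so Nefl made up 3.85% of its triplet and Nefm 87.0%. In the other IgG precipitates of sciatic nerve Nefl made up 64.7% and 41.5%.

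Vimentin was counted over 3 transcripts in each table, of which 2 are annotated as retained-intron forms. The boundaries tell them from the spliced mRNA and are shown on the plus strand of GRCm38 with exon bases in capitals and intron bases in lower case:
exon 3 end, chr2:13578479-13578538: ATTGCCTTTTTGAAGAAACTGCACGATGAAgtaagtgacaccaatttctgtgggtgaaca
exon 4 start, chr2:13578559-13578604: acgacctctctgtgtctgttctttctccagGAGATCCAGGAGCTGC
exon 5 start, chr2:13579391-13579450: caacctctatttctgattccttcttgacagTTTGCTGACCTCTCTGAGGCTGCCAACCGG
Transcript ENSMUST00000155605 keeps the 80 intron bases between exons 3 and 4. Transcript ENSMUST00000148248 begins with 52 intron bases before exon 5. These are 80 of 926 and 52 of 535 bases, and the rest of both lies in exons of the spliced mRNA. How reads of shared exons were divided is not known, so the shares below are not a measure of intron retention. The protein-coding transcript ENSMUST00000028062, of 2193 bases in 9 exons, held nearly all counts. The form that keeps the third intron took 0.304%, 0.125% and 0.0528% of Vim counts in Kif5A precipitates of sciatic nerve and 0.0798%, 0.181% and 0.156% in IgG precipitates, against 0.0206%, 0.00331% and 0.0733% in the inputs. The IgG values lay above all inputs, while the lowest Kif5A value lay among them. In dorsal root it took 0.216%, 0.238% and 0.103% with Kif5A and 0.150%, 0.506% and 0.0542% with IgG, against 0.0181%, 0.0532% and 0.0719% in the inputs. There the Kif5A values lay above all inputs and the lowest IgG value lay among them. These shares rest on 1 to 62 counts a library. The 95% Wilson interval ran from 0.227% to 0.408% for the highest sciatic nerve value and from 0.000584% to 0.0187% for the lowest, and reflects the error of counting alone, because amplified reads were not traced back to molecules. In the authors' deposited table, this form had a log2 fold change of Kif5A over input of 1.67 in sciatic nerve, with a false discovery rate of 0.829, and of 0.93 in dorsal root, with one of 0.780. The other form had medians of 0.132% with Kif5A, 0.0964% with IgG and 0.0811% in the inputs of sciatic nerve, and 0.0850%, 0.0790% and 0.0907% in those groups of dorsal root. Thus both precipitates had higher medians than the inputs in sciatic nerve and lower ones in dorsal root, and the ranges of precipitates and inputs overlapped in both tissues.

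No gene of the 13 lists passed for Kif5A over IgG or for Kif5A over input in either tissue. The list of 8 other intermediate filament genes had a median log2 fold change of Kif5A over IgG of 0.72 in sciatic nerve, beside -0.02 for all genes, and of -0.60 in dorsal root, beside -0.01. The list includes Bfsp1, which had no counts in any IgG library of sciatic nerve and at most 1.46 CPM with Kif5A. Summed levels were 120 to 167 CPM with Kif5A and 124 to 151 CPM with IgG in sciatic nerve, which overlapped. In dorsal root they were 441 to 590 and 600 to 879 CPM. Linkers and turnover factors had medians of -0.21 and -0.24 in these tissues, kinases and regulators 0.03 and 0.10, neurofilament mRNA-binding proteins -0.27 and -0.09, and partners of vimentin in injury signalling 0.24 and 0.08. Among the list members reported here, Tubb3 (-4.21, adjusted p = 0.0268) and Aqp4 (-2.35, adjusted p = 0.0160) fell for IgG over input in sciatic nerve. The endothelial Egfl7 (2.33, adjusted p = 0.0240) and the astrocyte transporter Slc1a3 (1.52, adjusted p = 0.0419) rose, beside 3.74% of all genes called (474 of 12681). The falls rest on low levels. Aqp4 had 0.243, 0.537 and 0.545 CPM with IgG, against 2.84, 2.41 and 1.65 CPM in the inputs. Tubb3 had no counts in IgG replicate 2, where Calca alone made up the sensory neuron sum of 9.87 CPM. In dorsal root, Cdh19, a Schwann cell cadherin, rose in IgG over input (2.15, adjusted p = 0.0395), beside 1.23% of all genes called (156 of 12681).

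Across the 18 libraries the neurofilament chains followed one another and ran against Vim, as a description of libraries that differ in tissue, precipitation and depth. On log2 CPM, Pearson's r was 0.75 between Nefl and Nefm, 0.70 between Nefl and Nefh and 0.68 between Nefm and Nefh. Against Vim it was -0.64 for Nefl, -0.57 for Nefm and -0.25 for Nefh. These values pool the tissues, between which the chains and Vim differed in opposite directions. Within each precipitate group, Nefm, Nefh and Vim were all highest in replicate 3, which Nefl did not share. In dorsal root inputs, Nefm was lowest and Vim highest in replicate 3. Among 8990 genes with a mean of at least 5 CPM, those most like Nefl were Cplx1, a presynaptic complexin (r = 0.951), Ttll7, a tubulin polyglutamylase (0.951), and Mmd2 (0.946). Nefm was most like Ptn, the growth factor pleiotrophin (0.920), Camp, the cathelicidin of neutrophils (0.908), and Vsnl1, a neuronal calcium sensor (0.898). Nefh was most like Pglyrp1, a peptidoglycan recognition protein of neutrophils (0.908), Hsp90aa1, an inducible heat shock chaperone (0.905), and Rph3a, a synaptic vesicle protein (0.905). Vim was most like Crip1 (0.964), S100a10, a calcium-binding partner of annexin (0.954), and Ptrf, a coat protein of caveolae (0.95). All of these are positive correlations over the same 18 libraries, which share the difference between the tissues.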

How the data were processed

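RNA from 18 libraries of mouse axoplasm was measured with the SMART-Seq v4 kit. The authors deposited raw counts per Ensembl transcript in 1 table a tissue, with their own log2 fold changes and p-values (raw and as false discovery rates), per the file headers. The submitters' processing notes name edgeR, CASAVA 1.8.2 and the build mm10 (GRCm38). No source used here gives the aligner, the counter or the use of strand. The smallest row sum was 17 in both tables; whether this came from a filter is not stated. Rows with no gene name held 0.138% to 0.237% of counts and were left out. Some genes are listed for 1 tissue alone.

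Counts were added up by gene name over the 16878 named transcripts in both tables. Library sizes are totals over all named rows of the table of that tissue. Groups were compared with edgeR 4.0.16 in R 4.3.3 (quasi-likelihood, robust, TMM, default filter by group, two-sided, adjusted over all genes tested). The 12 precipitates were fitted together for Kif5A over IgG, all 18 libraries where input was involved, and the 6 inputs by themselves for sciatic nerve over dorsal root. Ina came from fits of the dorsal root table alone, added after the files were seen. The scripts were tested on simulated data. Alternatives were RLE scaling, library size alone, DESeq2 1.42.0, no filter on low counts, all transcripts of each table, only the groups compared, a replicate block, the tissue's own table (added later) and leaving out each library. Levels are CPM with the TMM factors of the 18-library fit; per kb values use GENCODE M21 transcript lengths.

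The labels do not say what a replicate number marks. Same-numbered libraries deviated together, with every correlation over 0.1, for Kif5A over input in sciatic nerve (0.134 to 0.386) and for the inputs (0.234 to 0.467). The main tests of these comparisons were still unpaired, and the replicate block was fitted as an alternative only. Libraries of different number, 1 against 2, correlated about as much (0.137 and 0.300 for Kif5A over input, 0.284 and 0.333 for the inputs), and number 3 against the others was negative, so the numbers 1 and 2 are not told apart.

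The genes, the 13 lists (121 entries) and the marker genes were chosen with earlier results of these data known. Named genes are the 6 chosen genes, the 3 most correlated with each (Pearson, prior count 1, at least 5 CPM, no predicted genes), and list members past the threshold, up to 4 per list, or else the 2 with the smallest p; the latter are printed for the related lists in the comparison of inputs only. One list member past the threshold for IgG over input in sciatic nerve is not reported here.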

Additional observations from a re-analysis of the deposited data

How the results depend on the processing

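The 35 gene values were recomputed under 12 to 18 alternatives each, 492 in all, of which 234 left out a library; 15 of the values never changed sign. The calls of Nefl, Nefm and Vim between inputs held under all alternatives that kept every library. With library size alone, the median of all genes moved by 0.33 for Kif5A over input and 0.24 for IgG over input in dorsal root, and by 0.18 for Kif5A over input in sciatic nerve; with it, dorsal root Kif5A over input turned to 0.085 for Nefm and 0.025 for Ina, and IgG over input to 0.13 for Ina. IgG over input of Nefm in dorsal root turned to -0.0074 with RLE scaling, -0.0069 with DESeq2, -0.015 in its own table and -0.080 with the replicate block. The block also turned Nefh to -0.27 for Kif5A over input in dorsal root and Nefl to -0.13 for IgG over input in sciatic nerve. None of these passed, and the causes were not tested. In the comparison of inputs, the block gave -2.76 for Nefl, -2.24 for Nefm, -1.51 for Nefh and 1.19 for Vim and changed no call, as for Kif5A over input in sciatic nerve. IgG over input in dorsal root had 1 call, Vim, with DESeq2 and with the block, against 0.

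Leaving out a library in turn, log2 fold changes of Kif5A over IgG in sciatic nerve ran from -0.28 to 1.56 for Nefl, -0.90 to 0.55 for Nefm, 0.59 to 4.13 for Nefh and -0.52 to 0.038 for Vim. In dorsal root they ran from -0.067 to 0.21 for Nefl, -0.43 to 0.071 for Nefm, 0.20 to 1.41 for Nefh, -0.25 to 0.023 for Ina and -0.31 to 0.35 for Vim. Their differences between tissues ran from -0.38 to 1.45 for Nefl, -0.70 to 0.75 for Nefm, -0.27 to 3.52 for Nefh and -0.61 to 0.15 for Vim. Kif5A over input ran from -0.094 to 0.61 for Nefm and -0.044 to 0.83 for Nefh in sciatic nerve, and from -0.39 to 0.043 for Nefm and -0.32 to 0.37 for Nefh in dorsal root. IgG over input ran from -1.16 to 0.63 for Nefl, -0.28 to 1.15 for Nefm and -3.67 to -0.19 for Nefh in sciatic nerve, and from -0.15 to 0.24 for Nefm, -1.32 to -0.15 for Nefh and -0.23 to 0.0034 for Ina in dorsal root. Of the 4 genes, those past the threshold numbered 1 to 4 between inputs and 0 to 1 for IgG over input in each tissue.

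Counts over all genes moved more. Between inputs 503 genes passed, 1064 with DESeq2 and 220 to 2538 without a library. For IgG over input, 474 passed in sciatic nerve and 156 in dorsal root, against 1414 and 1417 with DESeq2 and 5 and 0 with only the groups compared. For Kif5A over input in dorsal root it was 0, and 390 with only the groups compared. With DESeq2, Kif5A over input in sciatic nerve had 51 calls against 1, Kif5A over IgG 411 against 6 in sciatic nerve and 158 against 0 in dorsal root, and their difference 188 against 2.

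Nefl and Nefh rest on as few as 10 and 9 counts in a sciatic nerve IgG library, although these 3 libraries had the highest totals (21358025 to 22616406 counts).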
